A study of Mus musculus with 12 samples.

Results

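The genes described here are 44 genes of the antioxidant and glutathione systems, out of 21729 genes in the table of counts, measured in 12 single cultured cardiac progenitor cells (CPCs) of the mouse. The members were taken by name: the peroxiredoxins, the thioredoxin system, superoxide dismutases, catalase, glutathione peroxidases, the enzymes that make, recycle and use glutathione, the quinone reductase Nqo1, the Nrf2 regulators, metallothioneins and the pentose phosphate enzymes. All 44 listed symbols were in the table. The list was drawn up with values of these cells in view, to ask whether the high level of Prdx1 in the cell CPC3 was shared by other targets of Nrf2. The values of CPC3 are therefore a description, and nothing is read from how often members stood out in that cell.

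The 12 cells form 1 group. They came from c-Kit+ cells free of blood lineage markers, sorted with beads from the hearts of 12-week-old female FVB mice, with the hearts of 2 mice pooled, and grown as an adherent culture for 5 passages. The medium held serum, LIF, bFGF, EGF, insulin-transferrin-selenium, B27 and N2. Single cells were picked by hand after trypsin and their messenger RNA was copied over its whole length with the Smart-Seq v4 kit. All 12 cells shared this medium, selenium included, and no cell grown without it was analysed here. The labels name no animal or culture for a cell, so the group counts as 1 sample, cells are not replicates, and no test was made.

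Nrf2 (gene Nfe2l2) is a transcription factor that Keap1 marks for destruction in unstressed cells. When oxidants or electrophiles alter Keap1, Nrf2 accumulates, enters the nucleus and binds antioxidant response elements (AREs) together with small Maf proteins. Its known targets include the genes that make glutathione, reduce thioredoxin, conjugate electrophiles and supply NADPH. In the heart these systems clear the peroxide and superoxide that mitochondria give off, and metallothioneins, which are controlled mainly by metals, bind zinc and copper and also take up oxidants.

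Total counts per cell ran from 3453708 to 5690184 and genes detected from 10022 to 11950. CPC3 stood apart: its 50 most abundant genes held 21.8% of its counts, against 13.6% to 20.1% in the other cells. Kit, the gene that gave the sort its name, had counts in 1 of the 12 cells, at 3.94 CPM (counts of a gene per 1000000 counts of the cell) in CPC10. The cells are therefore called CPCs by their label, not by Kit. Markers of other cell types moved with CPC3 too. The summed level of 10 macrophage and blood cell markers was 1623 CPM in CPC3 and 2.99 to 76.3 CPM in the others; 5 of the 10 had counts in CPC3. Cd53 was at 1463 CPM (at most 19.4 CPM elsewhere), Cd68 at 69.1 CPM (at most 64.4) and Csf1r at 59.1 CPM (at most 19.7). Lyz2 was at 30.3 CPM (at most 20.2) and Adgre1 at 1.58 CPM from 6 counts (at most 0.21). All 5 were thus highest in CPC3, where 6.98% of the 8492 genes averaging 10 CPM or more were. Cd53, Csf1r and Lyz2 averaged that much only through CPC3, and Adgre1 did not, so nothing is read from that count. Ptprc, Cd14, Itgam, Tyrobp and Fcer1g had no count there. The fibroblast markers split. Dcn was at 222.5 CPM in CPC3 and at most 12.4 CPM elsewhere, Pdgfra at 276.1 CPM (at most 175.4) and Col3a1 at 231.0 CPM (median 75.1), while Col1a1 was at 12.9 CPM (median 181.7) and Col1a2 at 22.1 CPM (median 743.6). The sum of 10 fibroblast markers, 858.5 CPM, lay inside the 218.9 to 6764 CPM of the other cells. Dcn too averaged 10 CPM or more only through CPC3. The endothelial sum was 64.3 CPM in CPC3 and 9792 CPM in CPC10, with at most 50.7 CPM in the remaining cells. Of the 6 genes of that list averaging 10 CPM or more, 5 were at least 2-fold higher in CPC3 (83.3%, against 7.82% of the 8492 genes). These were Pecam1, Cdh5, Emcn, Esam and Plvap, at 2.37 to 26.4 CPM against medians of only 0.18 to 3.79 CPM. Pecam1, Cdh5 and Esam had just 9 to 12 counts there. Besides CPC10, a further cell was higher than CPC3 for Pecam1 (10.3 CPM) and Emcn (37.6 CPM). Nothing is read from that count. The mural sum was 33.2 CPM in CPC3 and 13.8 to 3737 CPM elsewhere. Acta2 had 0 counts in CPC3, taken to allow 0.791 CPM (median elsewhere 31.2 CPM). The cardiomyocyte sum was 3.96 CPM against 0 to 86.6 CPM. What part these differences have in the values below was not tested.

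Of the 44 members, 42 had counts in all 12 cells and 37 were at 10 CPM or more in all 12. The same shares over all genes were not computed, so these counts describe the members only. Sod3, the secreted superoxide dismutase, was counted in 8 cells, and Mt2 in 11. All 44 averaged 10 CPM or more, as did 8492 genes in all, and this filter could not remove a member. Together the members took 4.88% of the counts of CPC3 and 1.37% to 2.63% of those of the other cells. Without Prdx1 the share was 2.28% in CPC3, next to 2.25% in CPC4 and 1.04% to 1.87% in the rest. Levels of different genes can be compared only per length, as CPM per kilobase of transcript. On that scale, averaged over the 11 cells other than CPC3, the order of the members began with Mt1 at 2429, Prdx1 at 1781, Gpx1 at 1481, Gpx4 at 988.1, Txn1 at 903.1 and Gstp1 at 889.9, and ended with Slc7a11, the cystine importer, at 2.86. The cells varied widely within most genes, so neighbours in this order are not set apart by it.

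**Figure D1:**
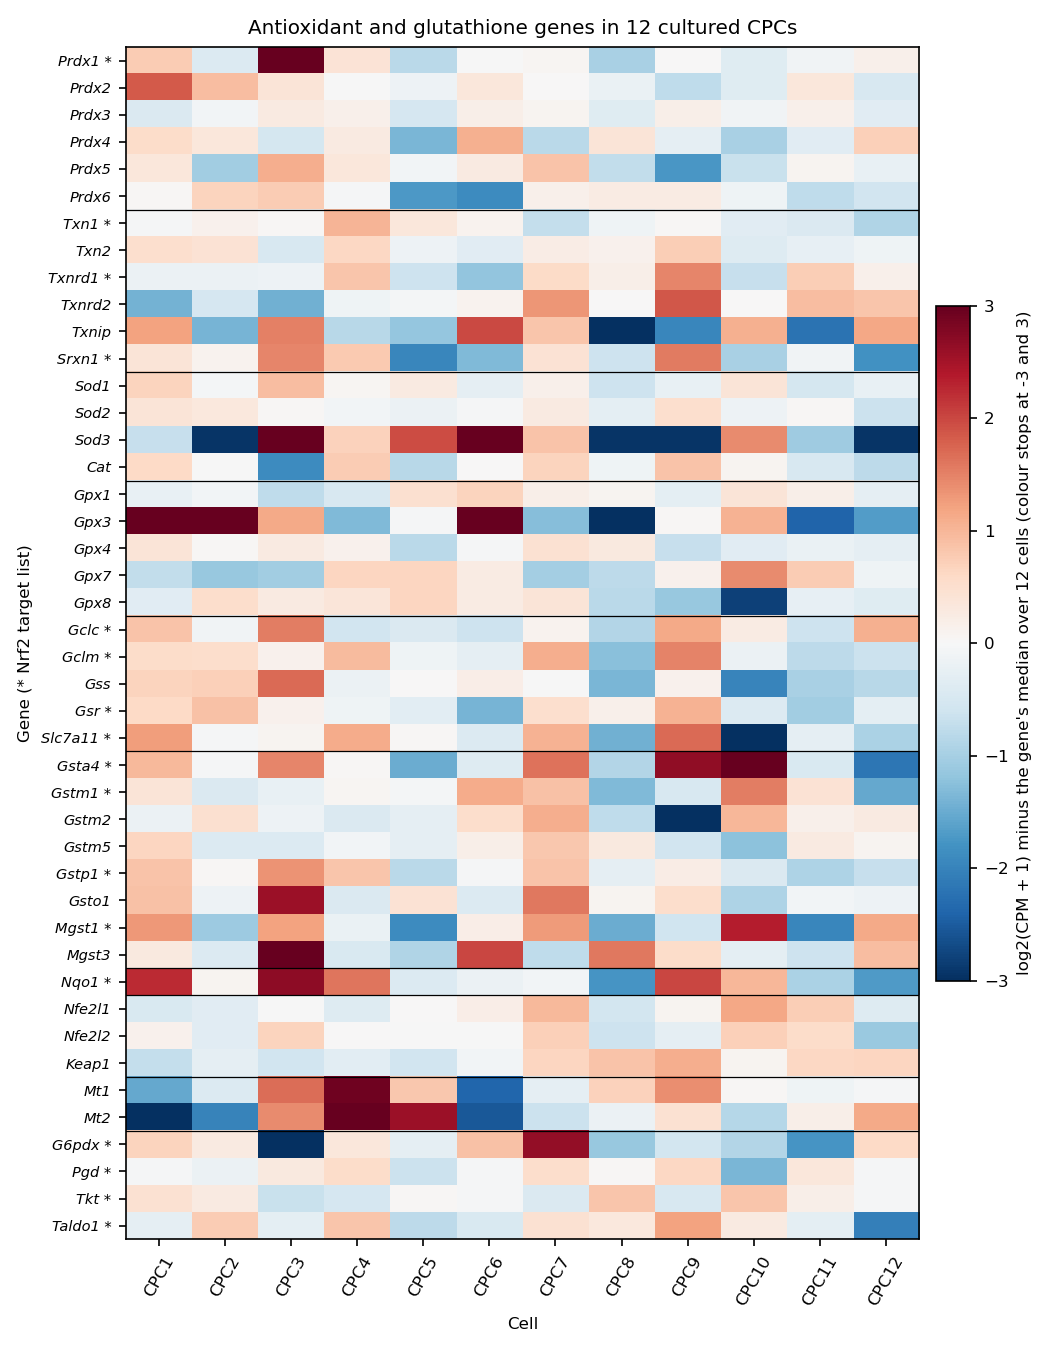
Level of each of the 44 members (vertical axis, genes marked with an asterisk are on the Nrf2 target list) in each of the 12 cells (horizontal axis), on the log2(CPM + 1) scale after subtracting the 12-cell median of that gene, with the colour scale stopping at -3 and 3. The column of CPC3 holds the deepest red for Prdx1, Sod3 and Mgst3 and a deep blue for G6pdx, and the column of CPC9 is red for many starred genes.

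Prdx1, a cytosolic peroxiredoxin that reduces hydrogen peroxide with electrons from thioredoxin, lies on chromosome 4 from 116685544 to 116700822 (GRCm38, plus strand). Its level was 26037 CPM in CPC3. In CPC1, CPC2, CPC4, CPC5 and CPC6 it was 4922, 2178, 3836, 1664 and 2861 CPM, and in CPC7 to CPC12 it was 3015, 1483, 2926, 2267, 2705 and 3208 CPM. CPC3 thus stood alone, and the other 11 cells lay between 1483 and 4922 CPM. The level in CPC3 was 5.29 times that of the next cell and 9.1 times the median of the other 11 cells. Throughout, such a fold is taken after adding 1 CPM to both sides. The coefficient of variation (SD over mean) was 1.42 over 12 cells and 0.345 without CPC3.

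The transcript took 2.6% of all counts of CPC3 (exact 95% binomial interval 2.59 to 2.62%), more than any other gene there. The next by CPM were Cryab at 12660 (median of the other cells 975.2), mt-Co1 at 11002 (6603), Spp1 at 9942 (67.3), Ctla2a at 9672 (2719) and S100a6 at 8652 (6838). Spp1 and Cryab thus had larger folds than Prdx1, at 145.6 and 13. Among the 317 genes averaging 500 CPM or more, the fold of Prdx1 in CPC3 had rank 5. The libraries carry no molecular identifiers, so intervals cover counting error only.

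The promoters of a few members are shown, because the list was built around Nrf2 and the ARE is a short sequence. Each run holds the 250 bases before the RefSeq start of the gene (GRCm38.p6), 5′ to 3′ on the strand of the gene. Capitals mark the ARE core, TGACNNNGC on either strand, except in Srxn1, where they mark the AP-1 site TGACTCA on either strand. The letters TGACTCAGC hold both motifs at once. Prdx1 is at chr4:116685349-116685598 (plus strand), Srxn1 at chr2:152105274-152105523 (plus), Nqo1 at chr8:107403206-107403455 (minus), G6pdx at chrX:74428881-74429130 (minus) and Mt2 at chr8:94172368-94172617 (plus). Prdx1, Srxn1 and Nqo1 are Nrf2 targets that were high in CPC3, G6pdx is the target that was lowest there, and Mt2 is a member outside the target list.
Prdx1: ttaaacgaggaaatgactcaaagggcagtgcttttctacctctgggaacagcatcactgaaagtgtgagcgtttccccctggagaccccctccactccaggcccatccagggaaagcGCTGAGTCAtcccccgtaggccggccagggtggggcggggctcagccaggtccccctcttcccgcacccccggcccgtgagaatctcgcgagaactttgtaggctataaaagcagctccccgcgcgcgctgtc
Srxn1: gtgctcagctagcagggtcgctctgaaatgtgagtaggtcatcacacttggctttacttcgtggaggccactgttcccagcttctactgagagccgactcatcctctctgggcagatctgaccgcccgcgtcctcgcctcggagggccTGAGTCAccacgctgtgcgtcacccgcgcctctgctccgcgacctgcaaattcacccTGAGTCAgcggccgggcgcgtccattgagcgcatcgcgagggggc
Nqo1: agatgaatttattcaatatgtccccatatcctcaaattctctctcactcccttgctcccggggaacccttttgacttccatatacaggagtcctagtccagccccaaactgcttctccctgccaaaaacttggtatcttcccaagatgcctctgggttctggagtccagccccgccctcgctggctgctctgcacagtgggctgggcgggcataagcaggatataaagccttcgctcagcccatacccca
G6pdx: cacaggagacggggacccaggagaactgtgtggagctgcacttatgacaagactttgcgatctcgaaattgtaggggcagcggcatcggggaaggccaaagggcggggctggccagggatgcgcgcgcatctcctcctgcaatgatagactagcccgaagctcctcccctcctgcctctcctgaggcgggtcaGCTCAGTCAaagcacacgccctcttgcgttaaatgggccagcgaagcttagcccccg
Mt2: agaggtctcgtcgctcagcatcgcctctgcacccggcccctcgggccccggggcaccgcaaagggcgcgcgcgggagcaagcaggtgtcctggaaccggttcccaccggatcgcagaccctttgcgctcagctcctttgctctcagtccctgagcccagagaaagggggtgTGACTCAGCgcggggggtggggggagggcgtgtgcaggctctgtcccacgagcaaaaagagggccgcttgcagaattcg

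In Prdx1 the core read TGACTCAGC on the reverse strand, 133 to 125 bases before the start, and an AP-1 site stood by itself 237 to 231 bases before it. Mt2 held the same letters on the forward strand, 79 to 71 bases before the start, and G6pdx held TGACTGAGC on the reverse strand, 57 to 49 bases before it. Srxn1 held a pair of AP-1 sites on the reverse strand, at 102 to 96 and at 45 to 39 bases, and no ARE core in this window. Neither motif was in the window of Nqo1, which says only that these letters are not in these bases. Promoters were found for 39 of the 44 members, and those of Prdx6, Sod3, Gclc, Gsr and Gsta4 were not among them. The ARE core was in 9 of the 39 (23.1%) and in 5 of 14 target promoters (35.7%), against 11.5% of 27025 promoters of that length. The AP-1 site was in 5 of the 39 (12.8%), against 5.16% of all. Of the 13 promoters of members at least 2-fold higher in CPC3, 3 held the core (23.1%) and 4 the AP-1 site (30.8%), and of the 14 target promoters 3 held the AP-1 site (21.4%). Matches are a description of the letters and not of binding.

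Across the list, 16 of 44 members (36.4%) were at least 2-fold higher in CPC3 than the median of the other 11 cells, where 7.82% of the 8492 genes were. In the other direction 4 members (9.09%) were at least 2-fold lower, where 24.4% of genes were. Just inside the limit were Gpx3 at 2.23-fold and Gpx7 at 0.449-fold, and just outside were Sod1 at 1.98-fold and Gpx1 at 0.558-fold. The median gene was at -0.29 on the log2 scale in CPC3, the cell whose abundant genes held the largest share of counts. With TMM scaling that median was -0.04, the background became 12% higher and 17.9% lower, and the counts of members became 19 and 3. CPC3 was the highest of the 12 cells for 12 members (27.3%, against 6.98% of genes): Prdx1, Prdx3, Prdx5, Prdx6, Sod1, Sod3, Gclc, Gss, Gstp1, Gsto1, Mgst3 and Nqo1. It was the lowest for 6, where it was for 13.3% of genes: Txn2, Txnrd2, Cat, Gpx1, Tkt and G6pdx.

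The other peroxiredoxins did not share the size of the Prdx1 difference. Prdx5, found in mitochondria, peroxisomes and cytosol, was at 907.6 CPM in CPC3, and the other cells held 124.3 to 769.2 CPM (median 401.4). That was 2.26-fold above the median and 1.18 times the highest other cell. Prdx3, the mitochondrial form, was even over the culture at 144.3 to 245.5 CPM, with CPC3 at the top by 1.06 times. Prdx6, which draws on glutathione rather than thioredoxin, was at 1217 CPM in CPC3 and 1156 CPM in CPC2, the next cell. Prdx2, the close cytosolic relative of Prdx1, had its high cells elsewhere: 2419 CPM in CPC1 and 1295 CPM in CPC2, and 892.0 CPM in CPC3. Prdx4, the form of the endoplasmic reticulum, was at 210.4 CPM in CPC3, inside the 116.4 to 639.7 CPM of the others. CPC3 was thus the top cell for 3 of the 5 peroxiredoxins other than Prdx1, where 6.98% of all genes peaked there, and by at most 1.18 times the next cell.

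The partners that keep peroxiredoxins working differed in direction. Thioredoxin itself, Txn1, was at 972.4 CPM in CPC3, within the 506.8 to 1928 CPM of the others (median 917.0). Txnrd1, the cytosolic selenoenzyme that reduces it, was at 564.0 CPM in CPC3 against a median of 691.7 CPM, and it ran from 274.4 CPM in CPC6 to 1714 CPM in CPC9. The mitochondrial pair was low in CPC3. Txn2 was at 195.4 CPM, below the 208.0 to 456.4 CPM of the other cells, and Txnrd2 was at 3.96 CPM (15 counts) against a median of 12.4 CPM, close to the 4.05 CPM of CPC1. Srxn1, which repairs overoxidized peroxiredoxins, was high in CPC3 at 649.7 CPM, 2.93-fold above a median of 221.0 CPM. CPC9 was higher still at 699.1 CPM, and the lowest cell, CPC5, had 59.9 CPM. Txnip, which binds thioredoxin and blocks it, ranged from 0.182 CPM in CPC8 (1 count) to 49.9 CPM in CPC6. CPC3 held 35.6 CPM, 5.06-fold above the median of 6.23 CPM. The cells fell on both sides of a wide gap for Txnip, with CPC1, CPC3, CPC6, CPC7, CPC10 and CPC12 at 22.1 CPM or more and the other 6 at 6.23 CPM or less. The median behind the fold thus lies at the edge of the gap, and the median over all 12 cells was 14.1 CPM.

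**Figure D2:**
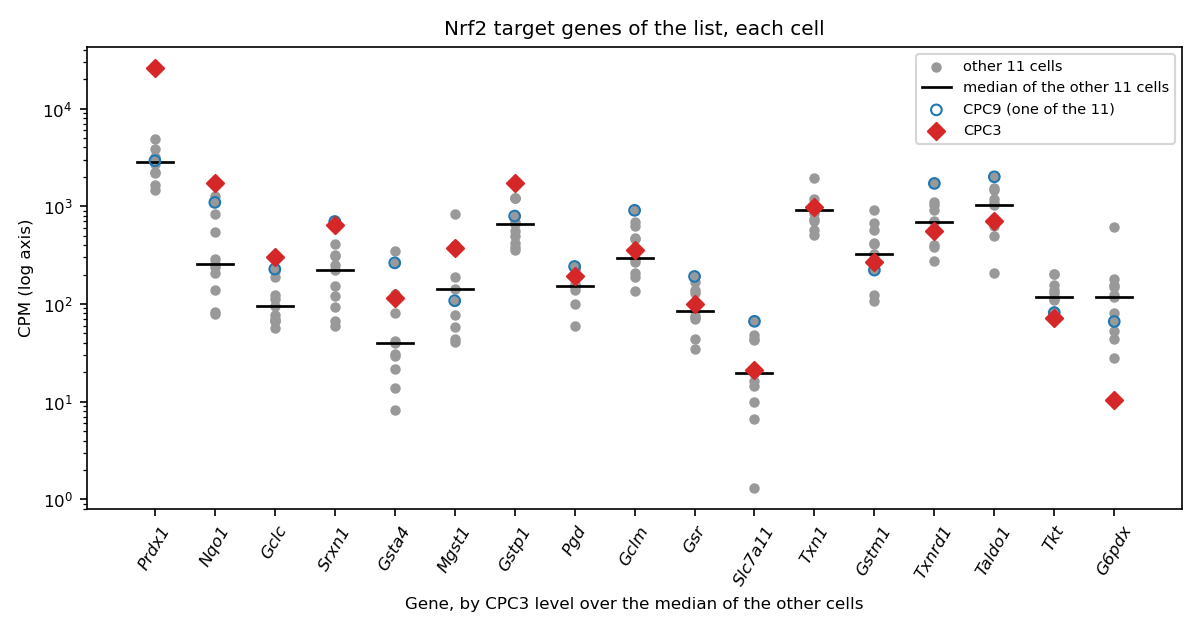
CPM (log axis) of the 17 Nrf2 target members (horizontal axis, ordered by CPC3 over the median of the other cells) in each cell: red diamonds are CPC3, grey points the other 11 cells, blue rings CPC9 among them, and black lines the median of the 11. CPC3 lies above all other cells for Prdx1, Nqo1, Gclc and Gstp1, inside their range for most others and at the bottom for Tkt and G6pdx.

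The other Nrf2 targets are set beside Prdx1 here by their values, as a description. Of the 16 target members other than Prdx1, 6 (37.5%) were at least 2-fold higher in CPC3, where 7.82% of all genes were: Nqo1, Gclc, Srxn1, Gsta4, Mgst1 and Gstp1. Of the 27 members outside the target list, 9 (33.3%) were. CPC3 exceeded all 11 other cells for 3 of these 16, namely Nqo1, Gclc and Gstp1, where 6.98% of all genes had their highest level there. The median log2 fold of the 16 was 0.26, which is 0.56 above the median of all genes. With the mean of the other cells in place of the median it was 0.01, with all genes at -0.43, a difference of 0.44. Under that setting 4 of the 16 were at least 2-fold higher, where 5.45% of all genes were.

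Nqo1, a quinone reductase often used as a readout of Nrf2, spanned a wide range over the culture. It was at 1739 CPM in CPC3, 1278 CPM in CPC1, 1096 CPM in CPC9 and 835.5 CPM in CPC4. The lowest cells were CPC8 at 79.1 CPM and CPC12 at 82.6 CPM, and the median of the cells other than CPC3 was 256.9 CPM. CPC3 was thus 6.75-fold above that median and 1.36 times the next cell, so that a group of cells rather than CPC3 alone was high in Nqo1.

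Glutathione supply showed a split within a single enzyme. Glutamate-cysteine ligase, which carries out the rate-limiting step, is made of a catalytic subunit, Gclc, and a modifier subunit, Gclm. Gclc was highest in CPC3 at 301.4 CPM, above CPC9 at 227.9, CPC12 at 218.1 and CPC1 at 188.2 CPM, with the remaining cells at 56.2 to 122.4 CPM and a median of 96.5 CPM without CPC3. Gclm was at 358.3 CPM in CPC3, inside 136.4 to 909.4 CPM (median 294.7 CPM), with CPC9 at the top. The fold in CPC3 was 3.1 for Gclc and 1.22 for Gclm. Gss, the synthetase that completes glutathione, was at 248.1 CPM in CPC3 and 18.6 to 126.2 CPM elsewhere (median 75.9 CPM), a fold of 3.24 and 1.97 times the next cell. Gsr, which recycles oxidized glutathione, was at 100.7 CPM against a median of 84.8 CPM, with CPC6 lowest at 34.8 CPM and CPC9 highest at 191.4 CPM. Slc7a11, which imports the cystine from which glutathione is made, was at 21.1 CPM in CPC3 against a median of 19.5 CPM, ranging from 1.31 CPM in CPC10 (7 counts) to 66.5 CPM in CPC9.

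The transferases, which join glutathione to electrophiles, had 5 of their 8 listed genes (62.5%) at least 2-fold higher in CPC3, where 7.82% of all genes were, and nothing is read from that count. Gsto1, an omega class enzyme that also reduces dehydroascorbate, was at 3941 CPM in CPC3, 1980 CPM in CPC7 and 1215 CPM in CPC1, with a low of 350.7 CPM in CPC10. Its fold over the median of 623.8 CPM was 6.31. Mgst3, a membrane enzyme with peroxidase activity, was at 260.0 CPM in CPC3, 121.9 CPM in CPC6 and 90.4 CPM in CPC8, and at 15.3 to 57.6 CPM in the rest. Its fold over the median of 24 CPM was 10.4, and CPC3 was 2.13 times the next cell. Gstp1 was at 1717 CPM in CPC3, with CPC7, CPC1 and CPC4 next at 1229, 1224 and 1211 CPM and a low of 354.0 CPM in CPC11 (median 664.4 CPM, a fold of 2.58). Gsto1, Mgst3 and Gstp1 all had CPC3 on top, and only the last of them is on the target list.

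Gsta4, which acts on lipid aldehydes, was at 114.4 CPM in CPC3, 2.83-fold above its median of 39.8 CPM, but CPC10 at 346.4, CPC9 at 263.7 and CPC7 at 127.8 CPM were higher, and CPC12 was lowest at 8.26 CPM. Mgst1, a microsomal transferase, was at 374.9 CPM in CPC3 and 839.1 CPM in CPC10, with CPC1 and CPC7 at 403.3 and 395.9 CPM and a low of 41.1 CPM in CPC11 (median 141.9 CPM, a fold of 2.63). The mu class had no such pattern in CPC3. Gstm1 was at 267.9 CPM there (107.0 to 908.5 CPM elsewhere, median 326.7 CPM), Gstm2 at 196.2 CPM (22.6 to 467.8 CPM) and Gstm5 at 76.5 CPM (43 to 178.0 CPM). Counts of these families are uncertain, since only uniquely mapped reads were kept and close copies can exchange reads. The close copy Gstp2 averaged 2.8 CPM and Gstm4 28.3 CPM.

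Enzymes that remove superoxide and peroxide without glutathione differed in direction. Sod1, the cytosolic dismutase, was at 231.8 CPM in CPC3 and 78.4 to 192.5 CPM elsewhere. Sod2, the mitochondrial dismutase, was at 135.5 CPM, within 84 to 188.7 CPM. Sod3 was at 63 CPM in CPC3 and 59.8 CPM in CPC6, while CPC2, CPC8, CPC9 and CPC12 had no counts. A count of 0 was taken to allow 3 counts, or 0.741, 0.545, 0.629 and 0.527 CPM in those cells. The fold of 13.4 for Sod3 is taken against a median of 3.76 CPM, and CPC3 was only 1.05 times CPC6. Cat, the peroxisomal catalase, was lowest in CPC3 at 48.3 CPM, with the other cells at 101.7 to 328.7 CPM (median 182.5 CPM). Its fold was 0.268, and CPC3 did not overlap the other cells.

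Of the glutathione peroxidases, Gpx1 of the cytosol was lowest in CPC3, at 872.5 CPM against 1066 to 2364 CPM. Gpx4, which reduces lipid peroxides in membranes, was at 1177 CPM in CPC3 and 558.9 to 1348 CPM elsewhere. The secreted form Gpx3 was the most uneven, from 0.364 CPM in CPC8 (2 counts) to 947.1 CPM in CPC6, with CPC1 at 415.2, CPC2 at 276.5 and CPC3 at 74.9 CPM (median without CPC3 33 CPM). Its coefficient of variation was 1.77 with and without CPC3. Gpx7 and Gpx8 sit in the endoplasmic reticulum. Gpx7 was at 29.3 CPM in CPC3 and 27.4 to 164.3 CPM elsewhere (median 66.5 CPM), a fold of 0.449, and Gpx8 was at 498.3 CPM against 58.6 to 647.9 CPM.

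G6pdx and Pgd, the NADPH-producing enzymes of the pentose phosphate pathway, went apart in CPC3. G6pdx, the entry enzyme, was at 10.5 CPM in CPC3 (40 counts, exact 95% Poisson interval 7.53 to 14.4 CPM). The other cells held 28.1 CPM (CPC11) to 612.1 CPM (CPC7), with a median of 117.5 CPM. CPC3 was below all of them, at 0.0974 of the median, and this was the lowest fold of the 44 members. Pgd, the next NADPH source in the pathway, was at 193.5 CPM in CPC3 against a median of 154.3 CPM and a range of 60.1 to 242.3 CPM. Tkt and Taldo1 rearrange sugars in the branch without NADPH. Tkt was lowest in CPC3 at 71.5 CPM, with the others at 80 to 203.6 CPM (median 116.6 CPM), and Taldo1 was at 703.5 CPM, within 209.1 to 2003 CPM (median 1040 CPM). G6pdx also had a cell far above the rest, since CPC7 was 3.38 times CPC6, the next cell.

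The regulators themselves were not far from the other cells in CPC3. Nfe2l2, which encodes Nrf2, was at 419.0 CPM in CPC3, 433.0 CPM in CPC7 and 431.8 CPM in CPC10, with a low of 120.7 CPM in CPC12. Keap1 was at 11.9 CPM in CPC3 and 10.7 to 40.2 CPM elsewhere, with CPC9 at the top. Nfe2l1, a relative that controls proteasome genes, was at 64.6 CPM, within 44 to 147.4 CPM. Nrf2 is regulated largely as a protein, which these counts do not measure. Of 6 tested genes for its Maf partners, the repressor Bach and the Cul3 ligase, none was at least 2-fold higher in CPC3, where 7.82% of all genes were. Bach1, which competes with Nrf2 for AREs, was lower at 3.43 CPM against a median of 9.74 CPM (16.7% of these genes, against 24.4% of all). Little can be read from 6 genes.

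The metallothioneins had their high cell in CPC4. Mt1 was at 5990 CPM there, 2524 CPM in CPC3 and 2062 CPM in CPC9, with lows of 151.2 CPM in CPC6 and 269.9 CPM in CPC1. Mt2 was at 227.2 CPM in CPC4, 52.5 CPM in CPC5, 22.9 CPM in CPC3 and 18.8 CPM in CPC12. CPC1 had no Mt2 count, which was taken to allow 0.869 CPM, and CPC6 had 2 counts. Both genes were thus highest in CPC4 and low in CPC1 and CPC6. CPC4 was 2.37 times the next cell for Mt1 and 4.32 times for Mt2. Against medians of 774.5 and 6.91 CPM, CPC3 was 3.26-fold higher for Mt1 and 3.03-fold for Mt2. Mt2 had the largest coefficient of variation of the list, 2.13, ahead of Gpx3, Prdx1, Sod3 at 1.35 and G6pdx at 1.18.

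**Figure D3:**
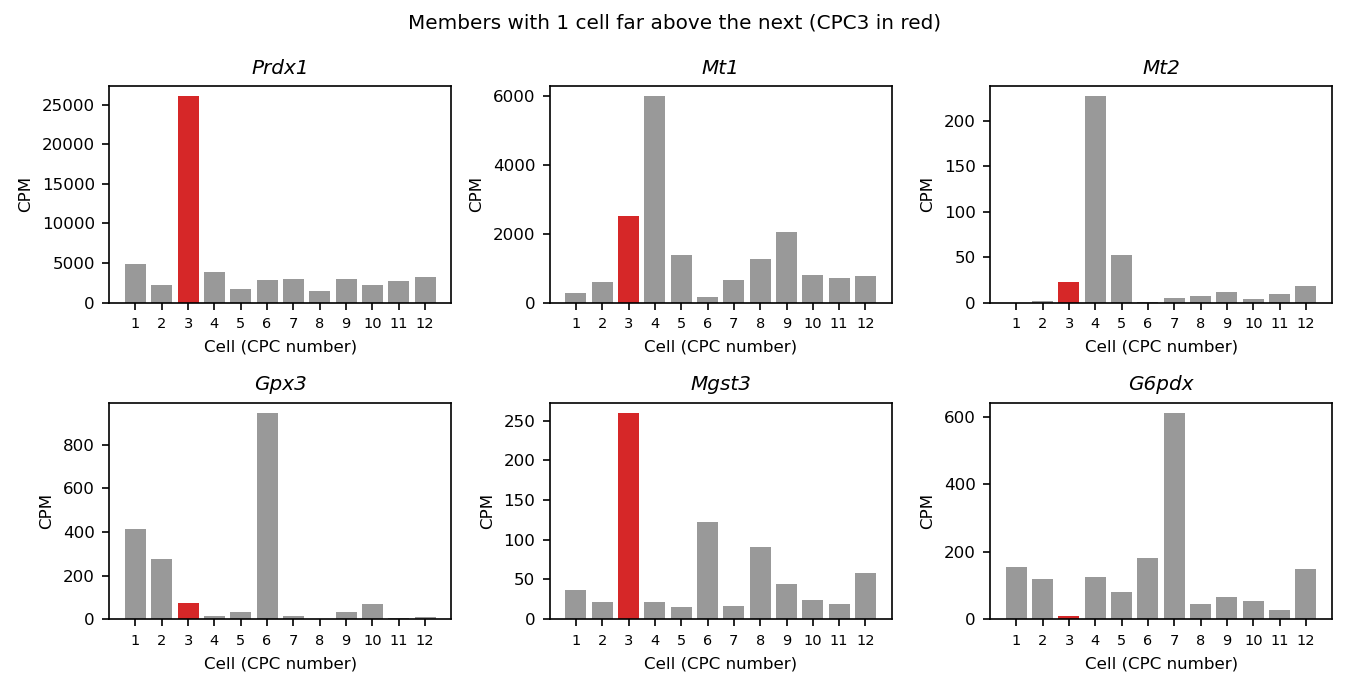
CPM (vertical axes, each starting at 0) of 6 members in each of the 12 cells (horizontal axes, CPC number), with CPC3 in red. The tall bar is CPC3 for Prdx1 (26037 CPM) and Mgst3 (260.0 CPM), CPC4 for Mt1 and Mt2, CPC6 for Gpx3 and CPC7 for G6pdx, where CPC3 is the lowest bar.

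A single cell far above the rest was not special to Prdx1. In 7 members (15.9%, against 8.21% of the 8492 genes) the highest cell was at least 2 times the next: Prdx1 and Mgst3 in CPC3, Mt1 and Mt2 in CPC4, Gpx3 in CPC6, G6pdx in CPC7 and Mgst1 in CPC10. Prdx1 had the largest such ratio, 5.29, and Mt2 followed. These 7 maxima thus lay in 5 different cells.

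Each other cell was described in the same way, against the median of its own 11 others. CPC9 had 12 members at least 2-fold higher, where 15.6% of genes were. They were Srxn1, Txnrd1, Txnrd2, Gclc, Gclm, Gsr, Slc7a11, Gsta4, Nqo1, Keap1, Mt1 and Taldo1, of which 9 are targets, and 5 members were at least 2-fold lower (10.1% of genes). CPC9 was the highest cell for 12 of 44 members and 7 of 17 targets, where it was for 13.8% of genes, while its Prdx1 was ordinary at 2926 CPM. The largest fold in CPC9 was that of Gsta4, 6.5. The lowest were those of Sod3, at 0 counts, and Gstm2, at 22.6 CPM and a fold of 0.0961. Both subunits of glutamate-cysteine ligase, the cystine importer, glutathione reductase and thioredoxin reductase were among the 12 higher members. These 5 genes were taken from those higher in CPC9, and only Gclc was also at least 2-fold higher in CPC3, where 7.82% of all genes were. Of the targets, Prdx1, Gstp1 and Mgst1 went the other way, at 9.1-fold, 2.58-fold and 2.63-fold in CPC3 and 1.02-fold, 1.2-fold and 0.579-fold in CPC9.

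The rest of the culture ran from cells with many high members to cells with few. CPC7 and CPC10 each had 10 of 44, with backgrounds of 11.7% and 14% of genes, and CPC10 also had 10 at least 2-fold lower (25.4% of genes), CPC4 had 8 (8.78%), and CPC1 (10.3%) and CPC6 (11.4%) had 7. CPC12 had 5 (12.4%), CPC2 (9.97%) and CPC5 (15.5%) had 2, CPC8 had 1 (10.8%) and CPC11 had 0 (10.6%). In CPC8, 11 members were at least 2-fold lower, where 18.3% of genes were, and 8 were at their lowest of all cells, where 10.9% of genes were. Prdx1, Nqo1, Gclc and Gclm were among these 8. The median log2 fold of the 16 targets other than Prdx1 was highest in CPC9, at 1.20, followed by CPC4 at 0.74 and by CPC1 and CPC7 at 0.71. CPC3 came next with 0.26, then CPC2 with 0.11, and the other 6 cells were between -0.34 and -0.81. Relative to the median of all genes the value of CPC3 was 0.56, still under those of CPC9 (1.01), CPC4 and CPC7 (0.72) and CPC1 (0.71). By this median of 16 genes CPC9, not CPC3, was highest. A second list of targets, read below, that holds Hmox1 and Ftl1 had a median of 0.87 in CPC3 and 0.43 in CPC9. That median includes Gsta3, which passed the filter only through CPC3, so it gives no ranking.

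**Figure D4:**
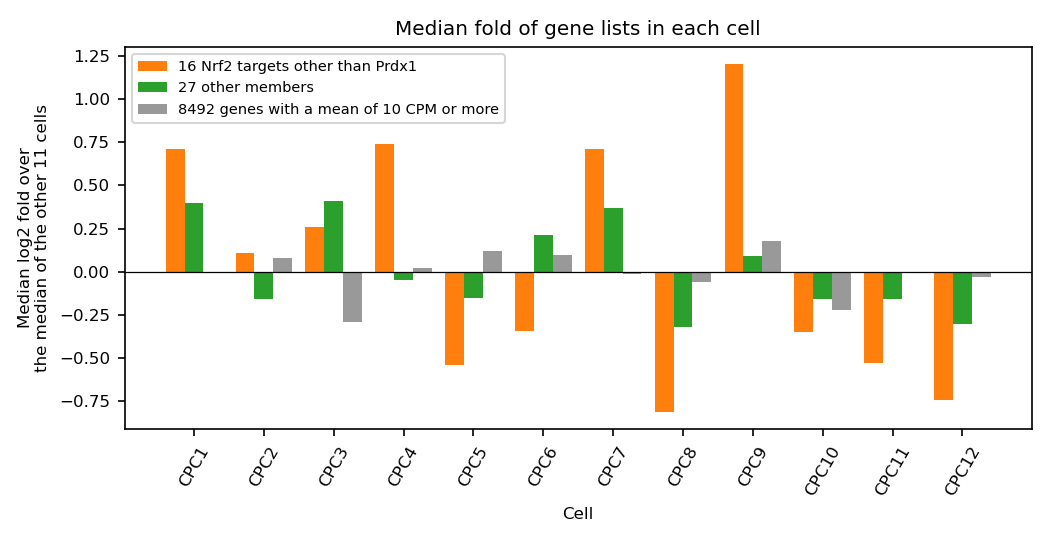
Median log2 fold of each cell over the median of the other 11 cells (vertical axis, bars start at 0) for the 16 Nrf2 targets other than Prdx1 (orange), the 27 other members (green) and the 8492 genes with a mean of 10 CPM or more (grey). The orange bar is tallest in CPC9 (1.20), and in CPC3 it is 0.26 while the grey bar is -0.29.

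Correlations across the cells are given as a description. The median Spearman correlation was 0.29 over the 136 pairs of the 17 targets, 0.05 over the 351 pairs of other members and 0.02 over pairs of all 8492 genes, each over 12 cells that share 1 culture and differ in depth. Without CPC3 the 3 medians were 0.31, 0.04 and 0.02. The pair with the highest value was Txnrd1 and Pgd, which both serve NADPH-dependent reduction, at 0.90. Mt1 and Mt2, which are neighbours on chromosome 8, followed at 0.87, and Gclm and Slc7a11 at 0.86. No Prdx1 pair was among these.

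A second list of Nrf2 targets outside the 44 members was read in the same way. Of its 26 genes, 19 averaged 10 CPM or more, and 8 of these were at least 2-fold higher in CPC3 (42.1%, against 7.82% of all genes) and 1 lower (5.26%, against 24.4%). Gsta3 passed that filter only through CPC3, and with the filter set over the other 11 cells, a choice made after seeing the data, 7 of 18 were higher (38.9%, against 7.05% of genes so filtered). All 44 members pass either filter. The median log2 fold of the 19, Gsta3 among them, was 0.87 in CPC3, 0.56 in CPC4, 0.51 in CPC7 and 0.43 in CPC9. No median without Gsta3 was taken, so the cells are not ranked by it. Over all 26 genes, with no filter, the summed level was 29598 CPM in CPC3 against 12325 to 27573 CPM in the others. Hmox1, haem oxygenase, was at 2868 CPM in CPC3 (median 1022 CPM), just under CPC4 at 2907 CPM, and Blvrb, a biliverdin reductase, was at 773.9 CPM (median 225.0 CPM). Ftl1, the ferritin light chain, was at 4447 CPM (median 1998 CPM), whereas Fth1, the heavy chain, was at 8530 CPM (median 7355 CPM). Sqstm1, the autophagy adaptor that binds Keap1, was at 4708 CPM (median 1853 CPM), and the carbonyl reductases Cbr1 and Cbr3 were 2.27-fold and 2.3-fold higher. Gsta3, an alpha class transferase, was at 302.4 CPM in CPC3 and at most 10.6 CPM in any other cell. Aldh3a1, an aldehyde dehydrogenase, was at 220.4 CPM in CPC3 and 332.1 CPM in CPC10, with the rest at 33.2 CPM or less. Blvra, the other biliverdin reductase, was the lower gene, at 35.1 CPM against 76.6 CPM.

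A further list held glutathione and redox genes that are on neither target list used here, which does not make them non-targets of Nrf2. Of 34 genes on that list, 27 averaged 10 CPM or more, with 2 at least 2-fold higher in CPC3 (7.41%, against 7.82% of all genes) and 9 lower (33.3%, against 24.4%). These shares lie near the background. The higher ones were Idh1, the cytosolic isocitrate dehydrogenase that yields NADPH, at 419.2 CPM (median 150.3 CPM), and Ggct, an enzyme of glutathione breakdown, at 44 CPM (median 12 CPM). Idh2, the mitochondrial counterpart of Idh1, was lower at 33.8 CPM (median 143.2 CPM). The other lower genes were Gstt3, Glrx, Sesn2, Sesn3, Chac1, Selenoh, Vkorc1l1 and Aifm2, among which Selenoh was at 17.9 CPM against a median of 205.6 CPM.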

How the data were processed

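Messenger RNA of 12 single cultured CPCs was copied with the Smart-Seq v4 kit before Nextera XT library preparation. Reads were aligned by the authors to mm10 with STAR (2.5.2b in the submitters' processing notes), keeping those with a unique position. What the authors deposited is a table of raw, unnormalized counts. The counting program, annotation and strand rule are not given in the sources used here, which leaves overlapping genes and those with close copies uncertain. Columns were matched to cells by name, and 0 columns belonged to other samples.

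CPM scaled the counts of each cell to a sum of 1000000. The fold of a cell was its CPM plus 1 over the median CPM of the other 11 cells plus 1, read against a limit of 2-fold among genes averaging 10 CPM or more. Totals of 3453708 to 5690184 counts put the level of 3 counts, the most that a count of 0 allows, at 0.527 to 0.869 CPM. Positions and the lengths of principal transcripts came from GENCODE vM21, on the same build as mm10. Promoters came from RefSeq (GRCm38.p6).

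The members, the lists and the limits were chosen with earlier results of these data known. Genes named with values were Prdx1, the target members, members at least 2-fold higher or lower in CPC3, members whose highest cell was at least 2 times the next, and the 5 with the largest coefficient of variation. Other members are given by range. Of other lists, genes past 2-fold in CPC3 were named, and of genes outside the lists the 5 with the highest CPM in CPC3. Kit, Fth1, the close copies Gstp2 and Gstm4, markers and metal genes within 2-fold, and the folds of CPC9 were added after their values were seen. No doublet caller was run, since the 12 cells were hand-picked. Scaling, depth, added constant, fold limit, filter and the cells compared were varied. The steps were tested on simulated data. Scaling factors came from edgeR 4.0.16 in R 4.3.3. All else ran in Python 3.11.15 with scipy 1.17.1, numpy 2.4.6, matplotlib 3.10.9 and pandas 2.3.3.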

Additional observations from a re-analysis of the deposited data

How the results depend on the processing

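The fold of Prdx1 in CPC3 was 9.1 as reported, 11.5 with TMM scaling, 11.8 with median-of-ratios scaling and 9.82 with a total without the 50 most abundant genes of each cell, a setting chosen after seeing the data. The 16 members at least 2-fold higher became 10 at a limit of 3-fold, where the share of all genes went from 7.82% to 3.89%, and the 6 targets other than Prdx1 became 2. The 4 lower members became 2 with 10 CPM added, 9 at 1.5-fold and 2 at 3-fold, where the share of all genes went from 24.4% to 13.6%, 37.7% and 12.1%. The limits and the added constant act on these counts by construction. These 8 values moved by more than the spread between cells or 1.5 times, and the other 52 of 60 values under 12 settings did not. That rule was wide. With the mean of the other cells the 16 higher members became 11 and the 6 targets 4, where 5.45% of all genes were higher, and neither counted as moved. The median log2 fold of the targets other than Prdx1 ran over 0.01 to 0.49 under the 12 settings. Its allowed spread, an SD of 0.71 between cells, was wider than that range. Leaving out each other cell in turn gave a Prdx1 fold of 9 to 9.35, 16 to 17 members higher, 4 lower in each case, 6 targets in each case, a median log2 fold of 0.09 to 0.31, and 12 to 13 members highest in CPC3. No value changed its direction. No paired analysis was possible because the cells form 1 group and no test was made. With 1 group of cells from pooled hearts, differences between cells cannot be told apart from differences between their libraries. Reads carry no molecular identifiers, and values of a few counts, such as Txnip in CPC8, are limited by depth.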

Other observations

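A list of genes that Atf4 controls under shortage of amino acids was also read in CPC3. Of 12 genes on that list, 7 were at least 2-fold lower (58.3%, against 24.4% of all genes) and 1 was higher (8.33%, against 7.82%), and the median log2 fold was -1.44, where the median of all genes was -0.29. Atf4 itself was at 88.1 CPM in CPC3 and 230.1 to 491.8 CPM in the other cells. Phgdh, the entry enzyme of serine synthesis, was at 53.5 CPM in CPC3 and 234.1 to 1438 CPM elsewhere, and Psat1, the next enzyme of that pathway, was at 26.1 CPM against 65 to 351.1 CPM. The other lower genes were Trib3, Chac1, Sesn2 and Slc7a5. Ddit3, a transcription factor of the same stress response, was the gene that was higher, at 275.8 CPM against a median of 70.5 CPM, and 274.2 CPM in CPC6. Slc7a11, which is on this list and among the 44 members, was at 21.1 CPM against a median of 19.5 CPM.

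Of 5 tested genes of metal handling, none was at least 2-fold higher or lower in CPC3, where 7.82% and 24.4% of all genes were, so that little can be read from 5 genes. The zinc importers Slc39a6 and Slc39a10 were highest in CPC4, at 276.8 and 90.6 CPM, but Slc39a1 and Slc39a14 were highest in CPC5, at 42.4 and 71.4 CPM, Mtf1 in CPC6, at 37.2 CPM, and Slc30a1, which averaged under 10 CPM, in CPC10, at 2.07 CPM. Of 4 partners and relatives of Txnip, the arrestin-like Arrdc4 was higher in CPC3 at 30.8 CPM (median 14 CPM) and Arrdc3 was lower at 2.37 CPM (median 28.1 CPM), each 25% of the list against 7.82% and 24.4% of all genes. Arrdc4 was highest in CPC6, at 40.9 CPM, as was Txnip. Of the 5 selenoprotein members (Txnrd1, Txnrd2, Gpx1, Gpx3 and Gpx4), 1 was at least 2-fold higher in CPC3 (20%, against 7.82% of all genes) and 1 lower (20%, against 24.4%), with a median log2 fold of -0.29.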
